A study of Mus musculus with 4 samples.

Results

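The YAP-TEAD pathway genes described here were 10 of the 18373 genes in the deposited expression table. They were taken by name: the coactivator genes Yap1 and Wwtr1 (which encodes TAZ), the DNA-binding factor Tead1, the kinase gene Lats2, the angiomotin-like genes Amotl1 and Amotl2, the scaffold gene Ajuba, and the target genes Ankrd1, Ccn1 and Ccn2. The CCN genes were listed under their older symbols, Cyr61 for Ccn1 and Ctgf for Ccn2, which are used below. All 10 genes were present, and all 10 passed the filter on low counts.

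RNA-seq was performed on primary liver sinusoidal endothelial cells (LSEC), the cells that line the liver's capillaries, isolated from 8-week-old balb/c mice with anti-CD146 beads and kept on collagen-coated plates. In the NC group (2 libraries) the cells carried a negative-control siRNA. In the siAirn group (2 libraries) they carried siRNA against Airn, a long noncoding RNA. In both groups the cells were cultured for 24 h, transfected for 48 h and collected at day 3. The labels number the libraries 1 and 2 within each group as biological replicates, but do not say whether they came from separate mice, so the p-values measure only the spread between these libraries. The study describes separate siRNAs against Airn, whereas the titles of both siAirn libraries name siAirn1, so which siRNA each received could not be settled.

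Total estimated counts ran from 17308382 to 18371959 per library. Airn itself had 7 and 3 counts in the NC libraries and 11 and 9 in the libraries labelled siAirn, so its counts were not lower there and every direction below is between libraries as labelled. The summed level of 8 LSEC markers, in CPM (the counts of a gene relative to the scaled total of its library), was 2949 and 2997 in NC and 2085 and 1887 in siAirn, and 7 of the 8 were lower by the test. Stellate cell and fibroblast markers summed to 1176 and 1388 CPM in NC and to 1441 and 1873 CPM in siAirn (4 of 12 higher), and hepatocyte markers to 590 and 749 CPM in NC and to 836 and 1077 CPM in siAirn (2 of 8 higher). Pan-endothelial markers summed to 8955 and 8596 CPM in NC and to 6529 and 5761 CPM in siAirn (5 of 8 lower), and Kupffer cell and macrophage markers to 227 and 275 CPM in NC and to 176 and 144 CPM in siAirn (6 of 10 lower). By the same test, described below, 8.27% of all genes tested were higher in siAirn and 8.56% lower. The most abundant genes of these lists were Oit3 (LSEC), Eng (endothelial), Dcn (stellate cell and fibroblast), Alb (hepatocyte) and Lyz2 (macrophage). Alb made up most of the hepatocyte sum, at 497 and 638 CPM in NC and at 705 and 900 CPM in siAirn. Alb itself was not called by edgeR's quasi-likelihood test (adjusted p = 0.0598). Mesothelial (10.6 to 15.3 CPM), cholangiocyte (37.1 to 42.1 CPM) and lymphocyte (3.03 to 4.97 CPM) markers were low, and no marker on any list was at 0 in all 4 libraries. In bulk samples, fewer cells of a type and less RNA per cell cannot be told apart, and the part of these other cells in the results below was not tested.

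The Hippo pathway restrains growth through a kinase cascade. Its last kinases, LATS1 and LATS2, phosphorylate YAP and TAZ, which are then held in the cytoplasm or degraded. When the kinases are less active, as on a stiff surface or in spread cells, YAP and TAZ enter the nucleus. There they bind TEAD factors, since they do not bind DNA themselves, and switch on genes such as Ctgf, Cyr61 and Ankrd1. Angiomotin proteins bind YAP and hold it at junctions and actin filaments, and AJUBA binds and restrains LATS kinases. LATS2 and AMOTL2 are also targets of YAP and TAZ, so that the pathway feeds back on itself. In endothelial cells YAP and TAZ respond to shear stress and take part in vessel growth.

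The letters that TEAD factors recognise, GGAATG or its reverse complement CATTCC, were searched in the RefSeq promoter windows of the mouse genome build GRCm38.p6, which run from 250 bases before to 50 bases after a start site. Windows were found for 8 of the 10 genes, all but Tead1 and Ctgf. The hexamer was present in at least one window of 7 of these 8 genes, Amotl1 being the exception, whereas 15.2% of the 13634 genes of the deposited table that have such a window held it. Sequences around the hexamer are shown for the 6 genes in which it lay upstream of the start site, since TEAD factors, through which the pathway reaches its genes, recognise these letters. They are read 5′ to 3′ on the strand of the gene, and capitals mark the hexamer.
Yap1: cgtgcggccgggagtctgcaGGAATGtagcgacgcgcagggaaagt
Wwtr1: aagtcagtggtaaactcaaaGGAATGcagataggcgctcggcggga
Amotl2: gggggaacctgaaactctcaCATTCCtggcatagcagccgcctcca
Ajuba: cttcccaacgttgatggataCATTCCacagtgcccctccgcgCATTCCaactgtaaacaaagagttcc
Cyr61: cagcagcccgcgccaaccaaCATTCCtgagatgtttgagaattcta
Ankrd1: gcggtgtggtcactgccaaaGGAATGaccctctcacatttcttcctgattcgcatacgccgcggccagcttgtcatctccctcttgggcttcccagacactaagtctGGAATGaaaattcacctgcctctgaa

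The Yap1 stretch lay at chr9:8004712-8004757 on the minus strand, with the hexamer starting 141 bases upstream of the start site. In Wwtr1 (chr3:57576021-57576066, minus strand) the hexamer started 136 bases upstream of the nearer start site and 170 bases upstream of the other. In Cyr61 (chr3:145650063-145650108, minus strand) it started 103 bases upstream. In Amotl2 (chr9:102717719-102717764, plus strand) it was nearer, 65 bases upstream. Ajuba (chr14:54577800-54577867, minus strand) held the hexamer at 186 and 164 bases upstream, and Ankrd1 (chr19:36119942-36120074, minus strand) at 210 and 123 bases upstream. A window with 2 or more copies, as in Ajuba and Ankrd1, was found for 1.39% of all genes of the table with a window. In Lats2 the hexamer began 5 bases after the start site and is not printed. The AP-1 letters TGANTCA, the site of a factor family that often acts beside TEAD, were in none of the 8 genes' windows and in 7.15% of all such genes, and the CArG box of SRF was in none of the 8 and in 1.65% of all such genes. A match of letters is a description and not a measured binding site.

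**Figure D1:**
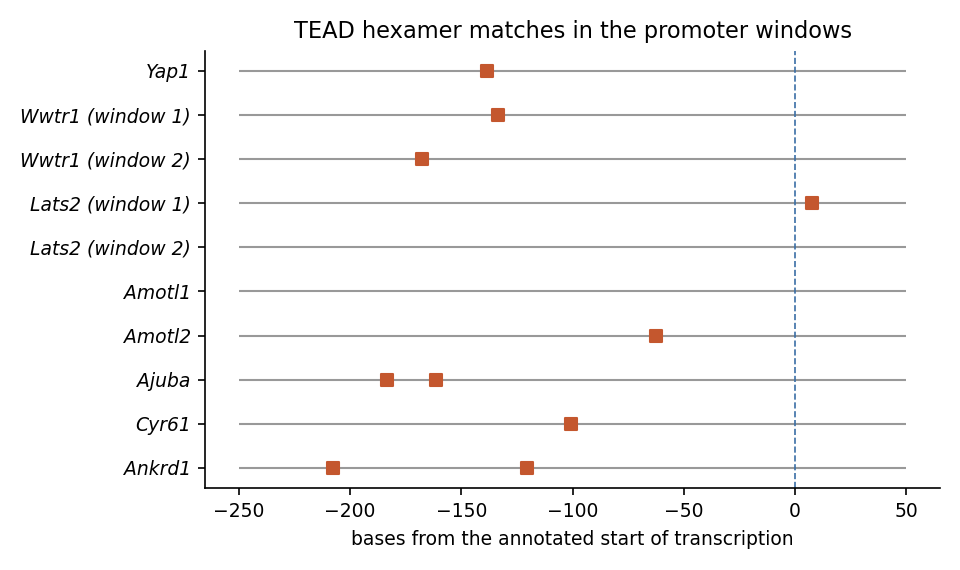
Position of the TEAD hexamer in the RefSeq promoter windows of 8 genes, as distance in bases from the start site, with the window drawn as a line and each copy of the hexamer as a mark. Ajuba and Ankrd1 each hold 2 copies upstream of the start, and Amotl1 holds none.

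The target genes were the most abundant of the 10. For levels between genes the deposited length-scaled values, read as FPKM (counts divided by transcript length and library size), were used. Ctgf, a matricellular protein gene of wound repair, was at 1059 and 1210 FPKM in NC and at 1093 and 1397 FPKM in siAirn. It ranked 73rd, 64th, 59th and 36th among the 18373 genes of those libraries, and took between 0.242% and 0.319% of all counts. Cyr61, a secreted matricellular relative of Ctgf that binds integrins, was next at 563 and 650 FPKM in NC and 683 and 864 FPKM in siAirn. Ankrd1, a nuclear and sarcomeric ankyrin-repeat protein best known from heart muscle, was at 365 and 433 FPKM in NC and 399 and 484 FPKM in siAirn. The remaining 7 genes lay far below, between 13.7 FPKM (Tead1 in an NC library) and 83.2 FPKM (Amotl2 in a siAirn library).

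**Figure D2:**
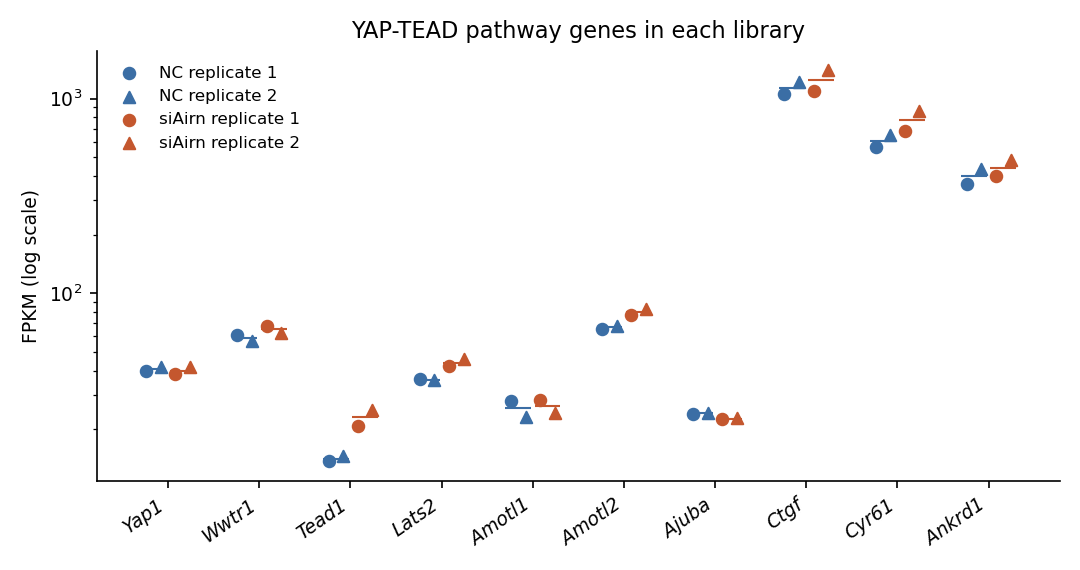
Deposited FPKM of the 10 genes on a log axis, with a point for each of the 2 NC and 2 siAirn libraries. The target genes Ctgf, Cyr61 and Ankrd1 sit between 365 and 1397 FPKM, above every library's value of the other 7 genes.

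Between the groups, 1 of the 10 genes, Tead1, which was higher in siAirn, had an adjusted p under 0.05 in the quasi-likelihood test of edgeR, with p-values adjusted over all 13628 genes tested by the Benjamini-Hochberg method. Of all genes tested 16.8% were called, 8.27% higher and 8.56% lower, so the share of the 10 genes was not above the background. The median log2 fold change of siAirn against NC was 0.11 over the 10 genes and 0.00 over all genes, with 8 of the 10 above 0 and 2 below. The median of the 10 was 0.26 without siAirn library 1 and 0.22 without NC library 2, so its size depended on single libraries. CPM did not overlap between the groups for 6 of the 10 genes, 4 higher and 2 lower in siAirn, against 62.7% of all genes tested (30.9% higher and 31.9% lower), so this count was also near the background. By the study's own screen, a fold change over 1.4 with an unadjusted p under 0.05, Tead1 alone of the 10 passed, against 9.96% of all genes. DESeq2's Wald test called 4 of the 10 and 17.1% of all genes to which it gave an adjusted p, edgeR's likelihood-ratio test 3 and 23.0%, and limma on log2(FPKM + 1) 2 and 14.9%. An offset for GC content and transcript length left Amotl2 as the 1 gene called, beside 7.96% of all genes with these values.

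**Figure D3:**
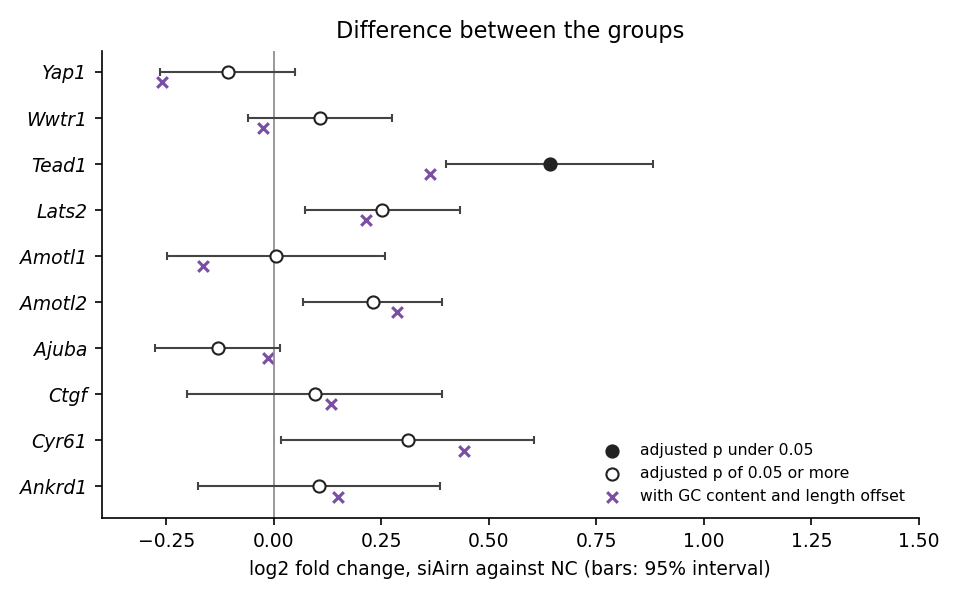
Log2 fold change of siAirn against NC for each of the 10 genes, with its 95% interval as a bar, and crosses for the value with an offset for GC content and transcript length. Tead1 at 0.64 is the one filled point, called by the test, and its cross lies at 0.36.

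Of the coactivators, Yap1 was at 155 and 160 CPM in NC and at 141 and 152 CPM in siAirn. The siAirn libraries were both below the NC libraries, by a log2 fold change of -0.11 (SE 0.07, 95% interval -0.27 to 0.05), which did not pass the test (adjusted p = 0.300). Wwtr1, whose product TAZ is partly interchangeable with YAP, was at 286 and 267 CPM in NC and at 310 and 286 CPM in siAirn. These groups overlapped, and the log2 fold change was 0.11 (SE 0.07, 95% interval -0.06 to 0.28, adjusted p = 0.330). Per length, Wwtr1 was the more abundant of the pair in every library, at 1.35 to 1.77 times the FPKM of Yap1. With an offset for GC content and transcript length, Wwtr1 moved to -0.02 and Yap1 to -0.26 (adjusted p = 0.0543).

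Tead1, one of the factors that carry YAP and TAZ to DNA, was at 134 and 138 CPM in NC and at 190 and 234 CPM in siAirn. Both siAirn libraries were above both NC libraries, and the siAirn libraries also differed from each other more than the NC libraries did. The means were 136 ± 3.25 and 212 ± 31.3 CPM (SD, n = 2 each). The log2 fold change was 0.64 (SE 0.10, 95% interval 0.40 to 0.88), or 1.56-fold, with an adjusted p of 0.0120 by edgeR's quasi-likelihood test. The size depended on the second siAirn library: the log2 fold change was 0.48 without it and 0.78 without the first. Tead1 was not called without NC library 1 (log2 fold change 0.61, adjusted p = 0.0963) or NC library 2 (0.66, adjusted p = 0.115), where 40 and 0 genes of the whole table were called, and 3506 and 3106 had an unadjusted p under 0.05. With the GC content and length offset the log2 fold change was 0.36 and the adjusted p 0.0654.

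Among the TEAD factors, Tead2 was the most abundant, at 41.8 and 42.0 FPKM in NC and at 39.3 and 35.1 FPKM in siAirn. Its log2 fold change was -0.20 (adjusted p = 0.101), which did not pass the test. Tead3 was at 2.43 to 3.30 FPKM and Tead4 at 2.12 to 2.90 FPKM, neither of them called (adjusted p = 0.808 and 0.235). Tead1 made up 22.7% and 23.4% of the summed FPKM of the TEAD genes in NC and 31.9% and 38.0% in siAirn. The ratio of Tead1 to Tead2 was 0.328 and 0.346 in NC and 0.531 and 0.720 in siAirn, still below 1 in every library.

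Lats2, the kinase that inactivates YAP and TAZ and is itself one of their targets, was at 175 and 172 CPM in NC and at 194 and 220 CPM in siAirn. The siAirn libraries were both higher, by a log2 fold change of 0.25 (SE 0.08, 95% interval 0.07 to 0.43), and the adjusted p was 0.0639. DESeq2's Wald test put it at an adjusted p of 0.0488. In edgeR's quasi-likelihood test with replicate number as a block the adjusted p was 0.00546, but whether the numbers pair the samples was not settled. It was also called by edgeR's likelihood-ratio test (adjusted p = 0.0355) and limma on log2(FPKM + 1) (adjusted p = 0.0465). With the GC content and length offset Lats2 was not called (0.21, adjusted p = 0.107). Without siAirn library 1 the log2 fold change was 0.34, and without siAirn library 2 it was 0.16. Without NC library 1 it was 0.26, and without NC library 2 it was 0.24. Its relative Lats1 was at 9.41 and 8.58 FPKM in NC and at 11.6 and 12.8 FPKM in siAirn and was called higher by edgeR's quasi-likelihood test (log2 fold change 0.39, adjusted p = 0.0241), but not with the GC content and length offset (0.14, adjusted p = 0.263). Per length, Lats2 was 3.61 to 4.16 times as abundant as Lats1. In the GENCODE M21 annotation 42.4% of the exonic bases of Lats2 also belong to a transcript model on the same strand, Gm49361, which the deposited table does not list, so reads there could not be divided between them.

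Amotl2, a junctional scaffold that binds YAP and is also a YAP target, was at 272 and 283 CPM in NC and at 312 and 340 CPM in siAirn. Its groups did not overlap, and the log2 fold change was 0.23 (SE 0.07, 95% interval 0.07 to 0.39) with an adjusted p of 0.0621. In edgeR's quasi-likelihood test with replicate number as a block, a pairing that was not settled, Amotl2 was called (adjusted p = 0.00364), as were 35.5% of all genes. It was called with the GC content and length offset (0.29, adjusted p = 0.0489), by DESeq2 (adjusted p = 0.0436) and without siAirn library 1 (0.29, adjusted p = 0.0406). It was not called without siAirn library 2 (0.17, adjusted p = 0.256), without NC library 1 (0.20, adjusted p = 0.253), without NC library 2 (0.26, adjusted p = 0.194) or by limma on log2(FPKM + 1) (adjusted p = 0.0514). Amotl1, its relative, was at 249 and 207 CPM in NC and at 244 and 213 CPM in siAirn. The siAirn libraries lay inside the range of the NC libraries, and the log2 fold change was 0.01 (SE 0.11, 95% interval -0.25 to 0.26, adjusted p = 0.980). The founding member of the family, Amot, was less abundant per length, at 5.60 and 6.41 FPKM in NC and at 8.24 and 8.87 FPKM in siAirn, and was called higher (0.57, adjusted p = 0.0129), a call that the GC content and length offset did not give (0.36, adjusted p = 0.0646). Per length, Amotl2 was 2.33 to 3.42 times as abundant as Amotl1, and Amotl1 2.74 to 5.02 times as abundant as Amot.

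Ajuba, a LIM-domain scaffold that links junction tension to LATS kinases, was at 82.3 and 83.7 CPM in NC and at 75.1 and 76.5 CPM in siAirn. The siAirn libraries were both lower, by a log2 fold change of -0.13 (SE 0.06, 95% interval -0.28 to 0.02), which did not pass the test (adjusted p = 0.185). With the GC content and length offset it was -0.01. Of its relatives, Limd1 was less abundant per length (Ajuba was 1.54 to 2.05 times as high) and Wtip somewhat more (Ajuba was 0.790 to 0.883 times as high). Neither relative was called, with log2 fold changes of 0.11 and -0.10 (adjusted p = 0.393 and 0.455).

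Of the target genes, Cyr61 was at 1087 and 1258 CPM in NC and at 1277 and 1634 CPM in siAirn. The lower siAirn library was only just above the higher NC library, and the log2 fold change of 0.31 (SE 0.12, 95% interval 0.02 to 0.61) had an adjusted p of 0.129. In edgeR's quasi-likelihood test with replicate number as a block, a pairing that was not settled, it was 0.30 and was called (adjusted p = 0.00144). That setting called 35.5% of all genes. DESeq2's Wald test gave an adjusted p of 0.0489, and without siAirn library 1 the log2 fold change was 0.48. Cyr61 was not called by edgeR's likelihood-ratio test (adjusted p = 0.0867) or by limma on log2(FPKM + 1) (adjusted p = 0.118). Nor was it called with the GC content and length offset (0.44, adjusted p = 0.0565). Ctgf was at 2445 and 2805 CPM in NC and at 2445 and 3164 CPM in siAirn, so that the lower library of each group had nearly the same level. Its log2 fold change was 0.10 (SE 0.13, 95% interval -0.20 to 0.39, adjusted p = 0.631). Ankrd1 was at 608 and 724 CPM in NC and at 642 and 790 CPM in siAirn, also overlapping, with a log2 fold change of 0.11 (SE 0.12, 95% interval -0.18 to 0.39, adjusted p = 0.573). Without the second siAirn library the values were 0.12 for Cyr61, -0.10 for Ctgf and -0.05 for Ankrd1. The ratio of Ctgf to Cyr61 FPKM was 1.88 and 1.86 in NC and 1.60 and 1.62 in siAirn, closer within the groups than between them. By the GENCODE M21 annotation the opposite-strand gene Gm15270 covers 23.2% of Ctgf's exonic sequence; it had 0 counts in all 4 libraries, and whether counting used strand is not given in the sources used here.

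Ctgf and Ankrd1 varied more between replicates than between groups, and Cyr61 about as much. In both groups replicate 2 was above replicate 1, by 1.15-fold in NC and 1.29-fold in siAirn for Ctgf, by 1.16-fold and 1.28-fold for Cyr61, and by 1.19-fold and 1.23-fold for Ankrd1. Replicate 2 was the higher in both groups for 7 of the 10 genes, whereas this held for 30.9% of all genes tested. Wwtr1 and Amotl1 went the other way in both groups, with log2 ratios of replicate 2 to replicate 1 of -0.10 and -0.12 for Wwtr1 and of -0.27 and -0.20 for Amotl1. Lats2 differed in sign, at -0.03 in NC and 0.18 in siAirn. The summed stellate cell and fibroblast markers and the summed hepatocyte markers given above were likewise higher in replicate 2 of each group, and their part in the levels of the target genes was not tested.

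**Figure D4:**
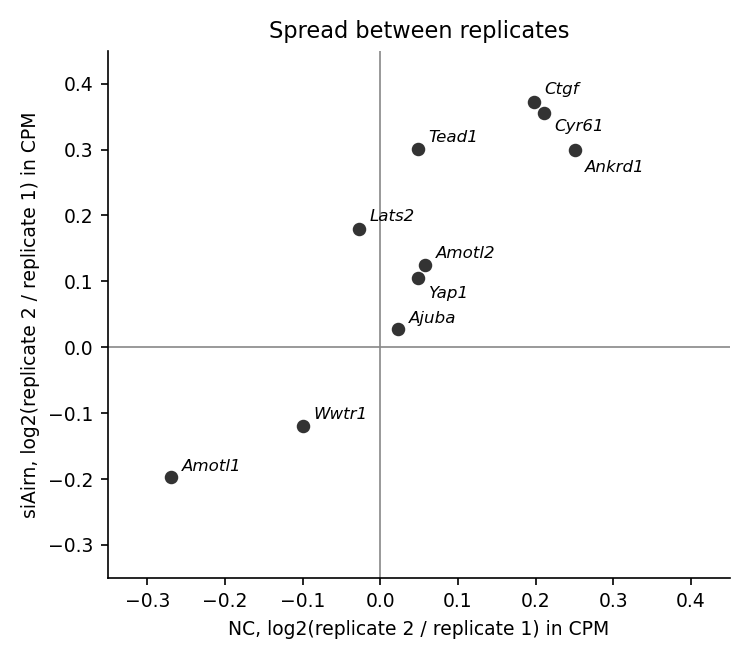
Log2 ratio of replicate 2 to replicate 1 in CPM for each of the 10 genes, NC libraries on one axis and siAirn libraries on the other. Ctgf, Cyr61 and Ankrd1 lie farthest to the upper right, with Ctgf at 0.20 in NC and 0.37 in siAirn, and Wwtr1 and Amotl1 below 0 on both.

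Of the other genes of the Hippo kinase core and its scaffolds, 7 of 19 were called, 6 higher and 1 lower in siAirn, or 36.8% against the background of 16.8%, with a median log2 fold change of 0.09 that was 0.28 without siAirn library 1, 0.22 without NC library 1 and 0.20 without NC library 2. Taok1, a kinase upstream of the MST kinases, rose from 95.6 to 136 mean CPM (log2 fold change 0.51, adjusted p = 0.00751), and Frmd6, a scaffold at the cell membrane, from 69.4 to 97.2 (0.49, adjusted p = 0.0138). Mob1b, an activator of LATS kinases, rose from 20.7 to 28.2 (0.44, adjusted p = 0.0264), together with Lats1. Mink1, a MAP4K-family kinase that can act on LATS, fell from 77.7 to 61.3 (-0.34, adjusted p = 0.0337). With the GC content and length offset only Frmd6 of the 19 was called (0.41, adjusted p = 0.0304), a share not above the 7.96% of all genes. The log2 fold changes of Taok1 and Mob1b shrank to 0.14 (adjusted p = 0.206) and 0.09 (adjusted p = 0.573), whereas that of Mink1 was -0.31 (adjusted p = 0.0547).

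Of 8 TEAD factors and cofactors 6 could be tested, since Vgll1 and Vgll2 had 0 counts in every library, and 2 were called, both higher (33.3%, against 16.8% of all genes called and 8.27% called higher). Vgll3, a vestigial-like partner of TEAD factors that competes with YAP for them, rose from 73.2 to 118 mean CPM (0.69, adjusted p = 0.0291). Its libraries were at 69.3 and 77.1 CPM in NC and further apart, at 97.5 and 139 CPM, in siAirn. Vgll4, which represses TEAD targets, rose from 33.6 to 43.0 (0.36, adjusted p = 0.0323). With the GC content and length offset Vgll4 was called (0.51, adjusted p = 0.0248) and Vgll3 was not (0.42, adjusted p = 0.143), that is 1 of 6 beside 7.96% of all genes.

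Among the proteins that bind YAP and TAZ, sit at junctions or turn them over, 7 of 23 were called (30.4%, against 16.8% of all genes), 6 higher and 1 lower, with a median of 0.07 that was 0.02 without NC library 2. Fat1, a giant protocadherin upstream of the pathway, rose from 60.8 to 112 mean CPM (0.89, adjusted p = 0.00895). Its libraries were at 61.1 and 60.6 CPM in NC and further apart, at 97.5 and 127 CPM, in siAirn. Tjp1, the tight-junction protein ZO-1, rose from 571 to 728 (0.35, adjusted p = 0.0124), and Itch, a ubiquitin ligase that acts on LATS1, from 86.1 to 109 (0.34, adjusted p = 0.0290). Csnk1e, a casein kinase that takes part in YAP degradation, fell from 216 to 175 (-0.30, adjusted p = 0.0300). With the GC content and length offset only Fat1 of the 23 was called (0.65, adjusted p = 0.0286), beside 7.96% of all genes, and the log2 fold changes of Tjp1, Itch and Csnk1e were 0.14, 0.16 and -0.19.

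Of 26 other target genes of YAP and TAZ, 25 could be tested and 4 were called, 2 in each direction, a share near that of all genes. Thbs1, the matrix protein thrombospondin 1, rose from 920 to 1456 mean CPM (0.66, adjusted p = 0.0234), and Dock5, an activator of Rac, from 22.3 to 28.6 (0.36, adjusted p = 0.0332). The Thbs1 libraries were at 879 and 961 CPM in NC and further apart, at 1231 and 1681 CPM, in siAirn. Igfbp3, which binds insulin-like growth factors, fell from 39.5 to 14.3 (-1.46, adjusted p = 0.00235), and Gadd45a, a stress-response gene, from 99.8 to 78.7 (-0.34, adjusted p = 0.0278). Igfbp3 was the one gene of this list called with the GC content and length offset (-1.36, adjusted p = 0.00418), beside 7.96% of all genes. Under this offset Thbs1 was at 0.55, Dock5 at 0.12 and Gadd45a at -0.22.

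Since SRF and its cofactors share many targets with YAP and respond to the same actin changes, 17 actin and SRF target genes were also counted. Of these, 4 were called (23.5%, against 16.8% of all genes called and 8.27% called higher), all higher. The median log2 fold change of the 17 genes was 0.21, but 0.12 without siAirn library 2, 0.14 without NC library 1, 0.31 without NC library 2 and 0.30 without siAirn library 1. Vcl, which anchors actin at focal adhesions, rose from 286 to 385 mean CPM (0.43, adjusted p = 0.0177), and Flna, an actin crosslinker, from 868 to 1147 (0.40, adjusted p = 0.0162). Acta2, smooth muscle actin and also on the stellate cell list, rose from 296 to 372 (0.33, adjusted p = 0.0256), and Egr1, an immediate-early factor, from 30.1 to 36.8 (0.29, adjusted p = 0.0474). All 4 were also called with the GC content and length offset, which called 5 of the 17, all higher (against 7.96% of all genes called and 2.82% called higher). The stellate cell and fibroblast marker sum was also higher in both siAirn libraries than in both NC libraries, but it includes Acta2. Acta2 alone was at 305 CPM in NC library 2 and 355 CPM in siAirn library 1, where the sums were 1388 and 1441 CPM. The sum and this list are therefore not independent, and the part of these cells was not tested.

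**Figure D5:**
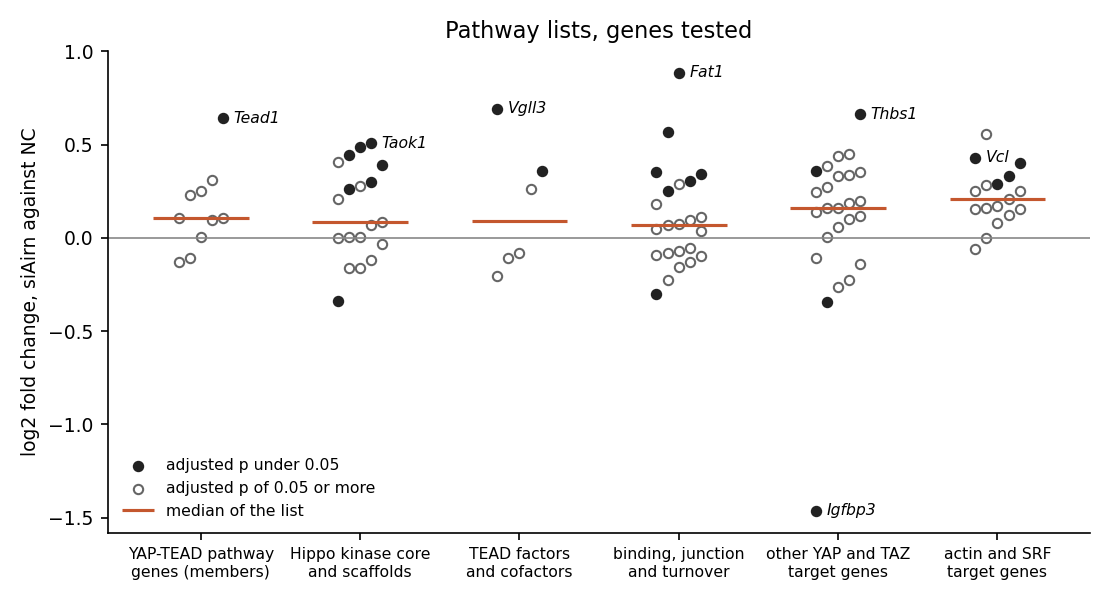
Log2 fold change of siAirn against NC for the 10 genes and for the genes of the 5 pathway lists that could be tested, with filled points for an adjusted p under 0.05 and a bar at each median. With all 4 libraries the medians lie between 0.07 and 0.21, and Igfbp3 at -1.46 is the lowest point.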

How the data were processed

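RNA-seq of primary mouse LSEC was analysed for 2 NC and 2 siAirn libraries. The authors deposited 1 table with estimated counts and length-scaled values, read here as FPKM, per library, and group averages that were not used. Per the submitters' processing notes the tools were BWA, Bowtie2 and RSEM. The notes name the build hg19, a human build, although the table holds mouse genes, so the reference used could not be settled. Strand use is not given in the sources used here. The 10 genes, the pathway and marker lists and the tests were chosen with earlier results of these data known.

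The deposited estimated counts were rounded and tested with edgeR 4.0.16 in R 4.3.3 (TMM scaling, filterByExpr, quasi-likelihood test, Benjamini-Hochberg adjustment over 13628 genes). The deposited FPKM served for levels between genes. CPM were computed with TMM-scaled library sizes. The alternatives were DESeq2 1.42.0 (2907 genes without an adjusted p), upper-quartile scaling, count minimums of 1 in any or 10 in every library, the likelihood-ratio test of edgeR, limma 3.58.1 on log2(FPKM + 1) and log2(FPKM + 0.1) where the FPKM averaged 1 or more, a replicate block, an offset for GC content and transcript length (natural spline with 5 degrees of freedom, GENCODE M21, 12948 genes), both together, leaving out each library, and the study's screen. All 10 genes were named with values, with their paralogs; from each list at most 4 called genes per direction with a mean of at least 5 CPM and no overlap between groups were named, the largest fold change first. The test was checked on simulated data.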

Additional observations from a re-analysis of the deposited data

How the results depend on the processing

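Of the 10 genes, 1 was called by edgeR's quasi-likelihood test without a block, 4 by DESeq2 (Tead1, Lats2, Amotl2 and Cyr61), 3 by edgeR's likelihood-ratio test and 2 by limma with either pseudocount. With replicate number as a block 4 were called (Tead1, Lats2, Amotl2 and Cyr61), beside 4841 of all genes (35.5%), and with the block and the GC content and length offset 7, beside 31.8% of all genes. These 7 were Tead1, Lats2, Amotl2, Cyr61 and Ankrd1, higher, and Yap1 (-0.26, adjusted p = 0.000106) and Amotl1 (-0.17, adjusted p = 0.00676), lower. Whether the numbers pair the samples was not settled: the labels do not say so, and with 2 pairs the deviations of NC 1 and siAirn 1 correlated at 0.233 over 13628 genes. Without 1 library, where the lone library is assumed to vary like the other group, between 0 (no NC 1 or no NC 2; unadjusted p under 0.05 for 1 and 3) and 4 (no siAirn 1) were called.

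Counts for the lists are to be read beside the share of all genes called, which was 16.8% by edgeR's quasi-likelihood test, 17.1% by DESeq2, 23.0% by the likelihood-ratio test, 14.9% by limma on log2(FPKM + 1), 35.5% with the block, 7.96% with the offset, 31.8% with both, 9.96% by the screen, and 0% to 17.3% without 1 library. For the Hippo core list (7 called) the count was 11 with the block, 1 with the GC content and length offset, 2 by the study's screen and 0 to 6 without 1 library. For the TEAD cofactor list (2 called) it was 1 by DESeq2, the offset or the screen, 4 with block and offset, and 0 to 2 without 1 library. For the binding and junction list (7 called) it was 4 by limma with either pseudocount, 11 with the block, 1 with the offset, 2 by the screen and 0 to 7 without 1 library. For the other targets (4 called) it was 7 by the likelihood-ratio test, 2 by limma with either pseudocount, 17 with the block, 1 with the offset, 16 with block and offset, 2 by the screen and 0 to 9 without 1 library. For the actin and SRF list (4 called) it was 9 with the block, 14 with block and offset, 0 by the screen (7 had an unadjusted p under 0.05) and 0 to 6 without 1 library. The counts of 0 without 1 library came from edgeR's quasi-likelihood test, and the lists then had 7, 2, 7, 6 and 4 genes or more, in the order above, at an unadjusted p under 0.05.

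Without 1 library the median log2 fold change of the TEAD cofactor list ran from 0.10 to 0.17 and that of the other targets from 0.05 to 0.27, against 0.09 and 0.16 with all libraries. With the offset the medians of the TEAD cofactor and the actin and SRF lists were 0.21 and 0.30. Directions reversed for 4 of the 10 genes, none of them called by edgeR's quasi-likelihood test without a block or offset, but the reversed value of Amotl1 was called lower with block and offset together. Wwtr1 was at -0.0240 with the offset and -0.0246 with block and offset. Amotl1 was at -0.0045 with upper-quartile scaling, -0.0024 with at least 1 count in any library, and -0.17 with the offset, with or without the block. Without 1 library, Amotl1 ran from -0.13 to 0.14, Ankrd1 from -0.053 to 0.25 and Ctgf from -0.10 to 0.27. The cause of these changes was not tested.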

Other observations

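Edn1 and Angpt2, endothelial genes that also stand on the list of other YAP and TAZ targets, were chosen after their values were seen. Edn1, which encodes the vasoconstrictor endothelin 1, was at 868 and 829 CPM in NC and at 762 and 650 CPM in siAirn. The siAirn libraries were both lower, with a log2 fold change of -0.27 (adjusted p = 0.0741). Angpt2, an antagonist of the TIE2 receptor, was at 1224 and 1168 CPM in NC and at 1132 and 914 CPM in siAirn, also lower in both, with a log2 fold change of -0.23 (adjusted p = 0.168). Neither passed edgeR's quasi-likelihood test, and like Cyr61, both had groups that did not overlap, as 62.7% of all genes did.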
